A study of Mus musculus with 12 samples.

Results

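The iron genes described here are 9 mouse genes for the uptake, storage, release and export of iron, out of 20587 genes in the table: Scara5, Tfrc, Slc11a2, Fth1, Ftl1, Ncoa4, Slc40a1, Aco1 and Ireb2. They were picked by gene symbol with earlier results of these data known, and Scara5 was selected on its large rise in each treatment. Its differences between groups are therefore given as a description with no test. The other 8 genes stand for steps of the same pathway, and all 9 passed the filter on low values. RNA-Seq was performed in 4T1, a mouse mammary carcinoma line that the study describes as p53 null. There were 4 groups of 3 libraries: IR -SG (5 Gy of X-rays in medium lacking serine and glycine), -SG (the same medium, no radiation), IR (5 Gy, serine and glycine present) and Ctr (serine and glycine present, no radiation). RNA was taken at 24 h, and all groups were grown with dialysed serum. The libraries were biological triplicates of 1 experiment in 1 cell line, so p-values measure the spread between these libraries.

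Iron enters most cells bound to transferrin, which is taken up by transferrin receptor 1, and the metal is then carried out of the endosome by a divalent metal transporter. Iron that is not used at once is stored inside ferritin, a shell of heavy and light chains, and is recovered when ferritin is delivered to lysosomes. Ferroportin is the known exporter of iron from mammalian cells. When iron is scarce, 2 iron regulatory proteins bind a hairpin called the iron-responsive element (IRE) in mRNAs: binding before the coding region blocks translation, and binding after the coding region of the transferrin receptor mRNA protects it from decay. Transferrin receptor RNA levels can therefore follow this control, whereas the regulation of ferritin and ferroportin by the element acts mainly on protein, which RNA-Seq does not measure.

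The IREs are shown because their place in the mRNA bears on the kind of control, as described above. They were searched in GENCODE M21 transcripts (GRCm38, the reference genome and not the 4T1 genome) as a loop of CAGTGN closed by an upper stem of 5 pairs, with a C bulged below it. Fth1 had 1 match, ahead of its coding region, at chr19:9982732-9982761 on the plus strand. Ftl1 had 1 at chr7:45459778-45459807, and Slc40a1 had 1 at chr1:45925464-45925493, both on the minus strand and ahead of the coding region. Tfrc had 4, all after the coding region on the plus strand of chromosome 16, at 32631219-32631248, 32631598-32631627, 32631663-32631692 and 32631710-32631739. Scara5, Slc11a2, Ncoa4, Aco1 and Ireb2 had no match to these letters, which says nothing of other forms of the element. The search allowed no unpaired base within the upper stem, so these genes are not thereby placed outside control by an IRE. The pattern was present in 0.148% of 20916 genes with a 5′ untranslated region and in 0.59% of 21707 genes with a 3′ untranslated region. Each sequence runs 5′ to 3′, with the loop in capitals, and the Tfrc elements are numbered along the mRNA.
Fth1: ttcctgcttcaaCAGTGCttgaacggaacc
Ftl1: gtcttgcttcaaCAGTGTttgaacggaaca
Slc40a1: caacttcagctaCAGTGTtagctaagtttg
Tfrc 1: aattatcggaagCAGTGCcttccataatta
Tfrc 2: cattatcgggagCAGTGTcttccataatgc
Tfrc 3: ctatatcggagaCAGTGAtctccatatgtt
Tfrc 4: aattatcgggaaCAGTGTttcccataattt

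Values are normalized counts, that is, reads per gene divided by 1 size factor per library. The libraries held 12540160 to 20066659 reads. Changes are differences of log2(normalized count + 1), tested with limma over 11663 protein-coding genes, and a gene rose or fell where its Benjamini-Hochberg adjusted p was under 0.05. The comparisons with Ctr share the same 3 Ctr libraries. All 7 mammary epithelial markers were present, with summed normalized counts of 69538 to 71420 in IR -SG, 72384 to 79448 in -SG, 51518 to 52812 in IR and 48703 to 49147 in Ctr. Their moves differed: Krt14 had means of 13445, 16324, 5021 and 3286 in that order, and Krt18 12051, 14457, 13686 and 15252. The erythroid list, which matters for iron genes, had 3 of 6 genes in the table and summed to 7.19 to 10.8 in IR -SG, 7.49 to 10.7 in -SG, 10.5 to 18.4 in IR and 12.5 to 24.6 in Ctr, with Hbb-bs at 0 in every IR -SG, -SG and IR library. Of the fibroblast markers, 3 of 4 were in the table and summed to 398 to 451 in IR -SG, 246 to 316 in -SG, 470 to 506 in IR and 195 to 254 in Ctr, nearly all of it Pdgfra. Of the leukocyte and macrophage markers, 3 of 7 were in the table. They summed to 78.7 to 103 in IR -SG, 47.9 to 62.0 in -SG, 139 to 151 in IR and 69.5 to 87.2 in Ctr. Cd68 had means of 75.6, 47.0, 107 and 71.3 in the same order, and Csf1r 13.7, 5.12, 32.1 and 4.71. Ptprc was at no more than 6.30 in any library. The endothelial list had 2 of 3 genes in the table and reached 5.39 in IR -SG, 5.83 in -SG, 16.8 in IR and 10.6 in Ctr. The part of these differences in the results was not tested. -SG replicate 6 stood apart from the other two -SG libraries: its log2 difference from their mean had a Spearman rho of 0.50 with GC content over 11661 genes and of -0.42 with exon length over 11663 genes, given as a description. Tfrc and Ireb2 were among the genes lowest in that library, at percentiles 4.8 and 3.4 of this difference, and results that rest on it are given with and without it.

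IR -SG cells had more Scara5, Slc40a1 and Ftl1 RNA than Ctr cells and less Tfrc RNA, with a log2 fold change of -1.01 for Tfrc (SE 0.09). Of the 8 tested genes, Slc40a1, Ftl1 and Ncoa4 rose in IR -SG against Ctr and Tfrc, Slc11a2 and Aco1 fell. Over all tested genes, 37.2% rose and 32.5% fell in that comparison. In -SG against Ctr, Slc40a1, Ftl1 and Fth1 rose and Tfrc, Slc11a2 and Aco1 fell, beside 30% of all tested genes that rose and 28.6% that fell. In IR against Ctr, Slc40a1, Ftl1 and Ncoa4 rose and none fell, beside 28.9% and 24.9% of all tested genes. Shares of 3 in 8 lay near these background shares, and the counts are read no further. The median log2 fold change of the 8 genes was -0.10 in IR -SG, -0.02 in -SG and 0.04 in IR, against 0.03, 0.01 and 0.00 over all tested genes. Without -SG replicate 6, 8 of the 8 passed the threshold in IR -SG, 6 in -SG and 6 in IR. The negative log2 fold changes of Fth1, Tfrc and Ireb2 in IR then passed, with the same values and smaller standard errors. Under the same setting more of all 11663 genes passed as well, 8666 in IR -SG, 7207 in -SG and 7153 in IR, against 8126, 6829 and 6268 with every library.

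**Figure D1:**
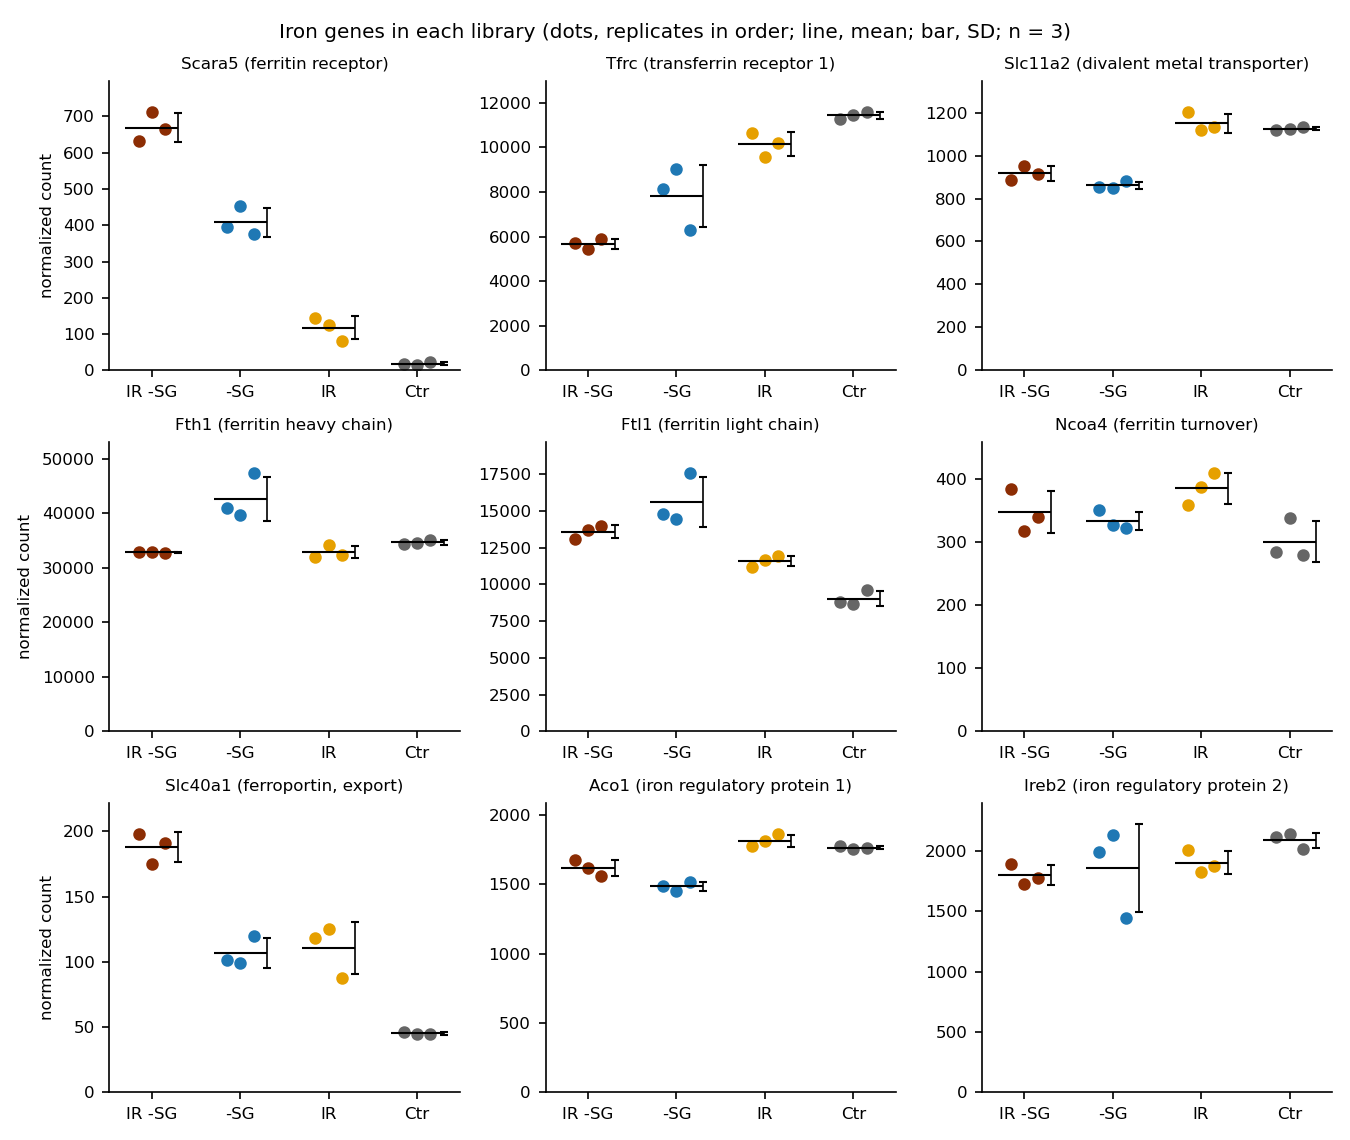
Normalized counts of the 9 iron genes in each library (y axis, starting at 0), for IR -SG, -SG, IR and Ctr from left to right. Dots are replicates in order, lines are means and bars are SD (n = 3). Scara5 is between 631 and 711 in IR -SG and between 14.9 and 22.9 in Ctr, and Tfrc is between 5435 and 5879 in IR -SG and between 11256 and 11561 in Ctr.

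Scara5 encodes a scavenger receptor that binds ferritin and takes it into the cell, a route of iron uptake that does not use transferrin. The gene lies at chr14:65666403-65764826 on the plus strand. It had 631, 711 and 664 normalized counts in the IR -SG libraries, 394, 454 and 376 in -SG, 145, 125 and 82.4 in IR, and 16.9, 14.9 and 22.9 in Ctr. The order IR -SG, -SG, IR, Ctr held in every library, with no overlap between groups. The means were 668 ± 40.0, 408 ± 40.7, 117 ± 31.9 and 18.2 ± 4.15 in that order (SD, n = 3 each). Ctr libraries held 19, 14 and 26 Scara5 reads, so counting error alone is large there. The log2 fold changes against Ctr were 5.14 in IR -SG, 4.43 in -SG and 2.61 in IR (SE 0.17 each), and they are the values on which the gene was chosen. IR -SG was higher than -SG by 0.71 and higher than IR by 2.54 on the log2 scale. The interaction, that is, the log2 difference made by radiation in starved cells less the one it made in fed cells, was -1.89 (SE 0.24). A pseudocount of 8 in place of 1 reduced the log2 changes to 4.70, 4.00 and 2.23.

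Tfrc encodes transferrin receptor 1 (chr16:32608920-32632794, plus strand) and was lower wherever serine and glycine were absent. It had 5717, 5435 and 5879 normalized counts in IR -SG, 8129, 9014 and 6304 in -SG, 10660, 9578 and 10172 in IR, and 11256, 11461 and 11561 in Ctr. No library of one group overlapped with another group. Tfrc fell by 1.01 on the log2 scale in IR -SG against Ctr (SE 0.09, limma adjusted p = 2.4e-08) and by 0.56 in -SG against Ctr (adjusted p = 3.23e-05). In IR the log2 fold change was -0.17 and did not pass (adjusted p = 0.099). IR -SG was also lower than -SG (log2 fold change -0.45, adjusted p = 0.0006) and lower than IR (-0.84, adjusted p = 5.29e-07). The interaction was -0.27 and did not pass (SE 0.12, adjusted p = 0.164). Leaving out -SG replicate 6, the lowest of its group, kept every fall named above past the threshold. The fall in -SG was then 0.42 on the log2 scale (limma adjusted p = 8.71e-09). The change in IR passed in that fit (-0.17, adjusted p = 0.000355), and so did the interaction (-0.42, adjusted p = 1.24e-05). The change in IR also passed without -SG replicate 5 (adjusted p = 0.0337) and with only the groups compared in the fit (adjusted p = 0.000319). In bulk RNA of cultured cells, fewer expressing cells and less RNA per cell cannot be told apart.

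Slc11a2 encodes the divalent metal transporter DMT1, which moves iron from the endosome into the cytosol (chr15:100387898-100425072, minus strand). Its levels divided by medium, with 885, 951 and 914 normalized counts in IR -SG, 855, 848 and 881 in -SG, 1201, 1117 and 1135 in IR, and 1119, 1122 and 1134 in Ctr. Both starved groups lay below both groups with serine and glycine, with no overlap. The gene fell by 0.30 on the log2 scale in IR -SG (SE 0.04, limma adjusted p = 1.72e-05) and by 0.39 in -SG against Ctr (adjusted p = 1.4e-06). The log2 fold change in IR was 0.03 (adjusted p = 0.563), and that of IR -SG over -SG was 0.09 (adjusted p = 0.113). Slc11a2 overlaps Gm5475 on the opposite strand, and the strand setting of the counting is not given in the sources used here.

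Fth1, which encodes the ferritin heavy chain that oxidises iron for storage (chr19:9980598-9985098, plus strand), was high in -SG cells and lower when radiation was added. It had 32872, 32870 and 32742 normalized counts in IR -SG, 40971, 39568 and 47272 in -SG, 32023, 34072 and 32378 in IR, and 34256, 34612 and 35095 in Ctr. All 3 -SG libraries were above every other library. Fth1 rose in -SG against Ctr by 0.29 on the log2 scale (SE 0.05, limma adjusted p = 8.01e-05) and fell in IR -SG against -SG (log2 fold change -0.37, adjusted p = 2.03e-05). Against Ctr the log2 fold change was -0.08 in IR -SG (adjusted p = 0.167) and -0.08 in IR (adjusted p = 0.188). The interaction passed at -0.29 (SE 0.07, adjusted p = 0.0116), and without the intensity trend of the test it did not (adjusted p = 0.0572). Without -SG replicate 6 the rise in -SG was 0.22 and the interaction -0.22 (adjusted p = 0.000286), and the -0.08 in IR -SG and in IR then passed (adjusted p = 0.00762 and 0.00929). Under quantile normalization the log2 fold change in IR -SG against Ctr turned to 0.08 and passed (adjusted p = 0.00858).

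Ftl1 encodes the ferritin light chain, which helps to form the iron core (chr7:45457944-45459884, minus strand), and rose in all 3 treatments. It had 13087, 13695 and 13988 normalized counts in IR -SG, 14746, 14466 and 17536 in -SG, 11201, 11670 and 11908 in IR, and 8787, 8684 and 9614 in Ctr. The groups followed the order -SG, IR -SG, IR, Ctr without overlap. The log2 fold change against Ctr was 0.59 in IR -SG (SE 0.06, limma adjusted p = 1.8e-07), 0.78 in -SG (adjusted p = 1.07e-08) and 0.36 in IR (adjusted p = 9.18e-05). Irradiated cells differed in opposite directions in the 2 media: IR -SG was lower than -SG by a log2 fold change of -0.19 (adjusted p = 0.0156), whereas IR was higher than Ctr. The difference of IR -SG from -SG was -0.10 without -SG replicate 6 (adjusted p = 0.0267). The interaction was -0.55 (SE 0.08, adjusted p = 0.000458) and -0.47 without -SG replicate 6 (adjusted p = 6.72e-07). The fall in IR -SG against -SG did not pass when IR -SG replicate 4 was left out (adjusted p = 0.0707) or without the intensity trend (adjusted p = 0.0584). A ferritin light chain copy on chromosome 13 had 951 to 1733 normalized counts, at most 11.8% of Ftl1, so reads may be split between the 2 loci and the Ftl1 values are uncertain to that extent. Gm10252, which overlaps Ftl1 on the other strand, had 2.81 to 11.7.

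Ncoa4 encodes the receptor that delivers ferritin to lysosomes for breakdown (chr14:32159865-32179855, plus strand). It had 385, 318 and 340 normalized counts in IR -SG, 350, 327 and 323 in -SG, 359, 387 and 409 in IR, and 285, 338 and 280 in Ctr. IR libraries lay above all Ctr libraries, whereas the IR -SG and -SG ranges both overlapped with Ctr. The gene rose in IR by 0.36 on the log2 scale (SE 0.09, limma adjusted p = 0.00232) and in IR -SG by 0.21 (adjusted p = 0.0402), and its log2 fold change in -SG was 0.15 (adjusted p = 0.142), or 0.24 without Ctr replicate 2 (adjusted p = 0.0308). The call in IR -SG is weak: it did not pass in 7 of the other settings, with adjusted p between 0.0596 and 0.205. The interaction was -0.30 (adjusted p = 0.125).

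Slc40a1 encodes ferroportin (chr1:45908068-45926523, minus strand) and rose in each treatment. It had 198, 175 and 191 normalized counts in IR -SG, 101, 99.1 and 120 in -SG, 119, 126 and 87.8 in IR, and 46.3, 44.6 and 44.9 in Ctr. Every treated library was above every Ctr library, every IR -SG library was above all others, and the -SG and IR ranges overlapped. The log2 fold change against Ctr was 2.03 in IR -SG (SE 0.13, limma adjusted p = 6.53e-10), 1.21 in -SG (adjusted p = 5.83e-07) and 1.25 in IR (adjusted p = 6.79e-07). IR -SG was higher than -SG by 0.82 (adjusted p = 0.00011) and higher than IR by 0.77 (adjusted p = 8.47e-05). The -SG and IR groups differed by -0.04 (adjusted p = 0.801). The interaction was -0.44 and did not pass (SE 0.18, adjusted p = 0.133), though it did without IR replicate 3 (-0.60, adjusted p = 0.0284).

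Aco1 encodes iron regulatory protein 1, which is also the cytosolic aconitase when it holds an iron-sulfur cluster (chr4:40143081-40198338, plus strand). It had 1673, 1614 and 1558 normalized counts in IR -SG, 1487, 1452 and 1518 in -SG, 1773, 1814 and 1859 in IR, and 1777, 1755 and 1763 in Ctr. The -SG libraries were lowest, the IR -SG libraries came next and the other two groups overlapped. Aco1 fell by 0.13 on the log2 scale in IR -SG (SE 0.04, limma adjusted p = 0.00744) and by 0.25 in -SG against Ctr (adjusted p = 3.95e-05), and its log2 fold change in IR was 0.04 (adjusted p = 0.399). IR -SG was 0.12 above -SG (adjusted p = 0.0195), a difference that did not pass in 5 of the other settings (adjusted p up to 0.0989). With all libraries scaled to the same total, the fall in IR -SG did not pass either (adjusted p = 0.0711).

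Ireb2 encodes iron regulatory protein 2, which is degraded when iron is plentiful (chr9:54863789-54912530, plus strand). It had 1891, 1730 and 1780 normalized counts in IR -SG, 1996, 2132 and 1445 in -SG, 2007, 1823 and 1879 in IR, and 2113, 2137 and 2020 in Ctr. Here -SG replicate 6 was the lowest of all 12 libraries. The log2 fold change was -0.22 in IR -SG (SE 0.10, limma adjusted p = 0.0593), -0.19 in -SG (adjusted p = 0.107) and -0.14 in IR (adjusted p = 0.254), and none passed. Without -SG replicate 6 the same values in IR -SG and IR passed (adjusted p = 5.93e-05 and 0.00674), and the value in -SG was -0.02 (adjusted p = 0.744). Without -SG replicate 5 the value in -SG was -0.30 and passed (adjusted p = 0.00981). The value in IR -SG passed in 6 of the other settings.

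**Figure D2:**
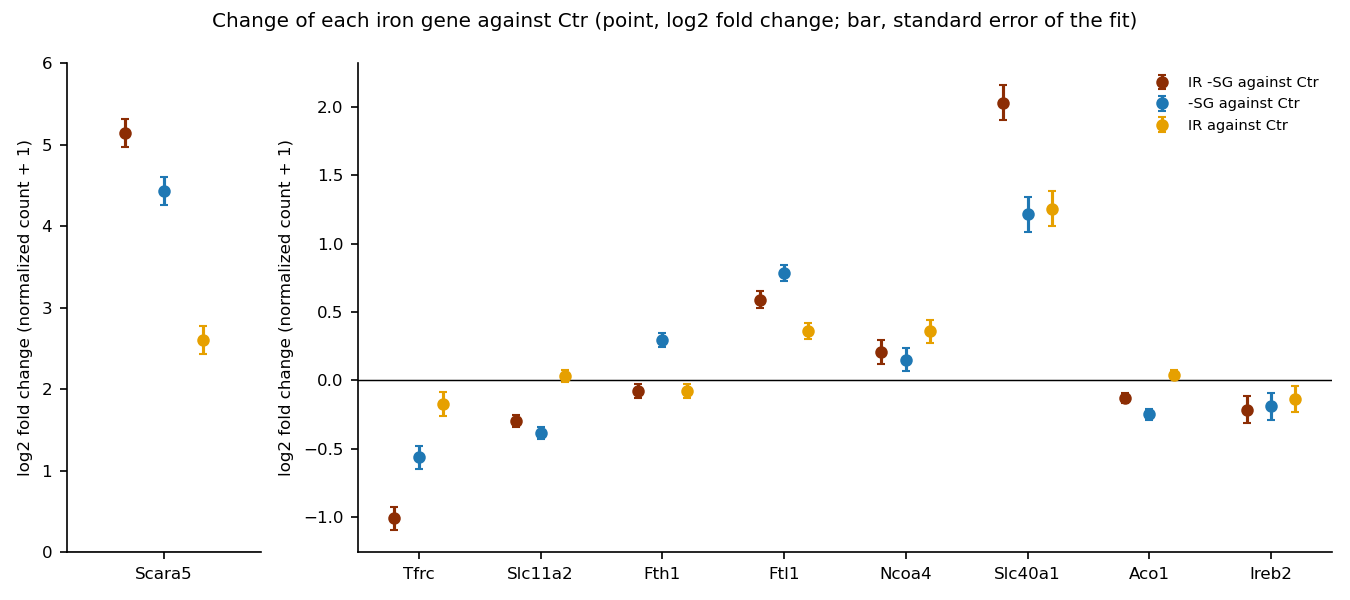
Log2 fold change of each gene against Ctr (y axis, difference of log2(normalized count + 1)) in IR -SG, -SG and IR, with the standard error of the fit as bars; Scara5 has an axis of its own. Slc40a1 reaches 2.03 and Tfrc -1.01 in IR -SG, and Fth1 is at 0.29 in -SG.

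Comparing the treatments with each other, 5 of the 8 genes passed in IR -SG against -SG (43.1% of all tested genes did): Slc40a1 and Aco1 rose, and Tfrc, Fth1 and Ftl1 fell. In IR -SG against IR, 5 of 8 passed (57.1% of all tested genes), with Slc40a1 and Ftl1 higher and Tfrc, Slc11a2 and Aco1 lower. In -SG against IR, 5 of 8 passed (58.5% of all tested genes), with Fth1 and Ftl1 higher and Tfrc, Slc11a2 and Aco1 lower. The interaction passed for Fth1 and Ftl1, 2 of 8, beside 11.4% of all tested genes, and both values were negative. Ireb2 and Ncoa4 passed in none of these 4 with every library in the fit. With -SG replicate 6 left out, Ireb2 passed in IR -SG against -SG (log2 fold change -0.20, limma adjusted p = 0.00123) and in -SG against IR (0.12, adjusted p = 0.0316). Ncoa4 in -SG against IR was near the threshold (-0.21, adjusted p = 0.0506) and passed in 8 of the other settings.

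Ratios of 2 genes within a library do not depend on how libraries are scaled, and were given no test. Reads of Tfrc over reads of Fth1 averaged 0.173 ± 0.00715 in IR -SG, 0.187 ± 0.0483 in -SG, 0.309 ± 0.0262 in IR and 0.330 ± 0.0013 in Ctr (SD, n = 3 each). All starved libraries were below all libraries with serine and glycine, and the -SG mean log2 ratio was -2.46, or -2.23 without replicate 6. The ratio of Fth1 to Ftl1 reads was 2.42 ± 0.0869 in IR -SG, 2.74 ± 0.0413 in -SG, 2.83 ± 0.103 in IR and 3.84 ± 0.174 in Ctr. It was lower in every treated library than in any Ctr library. The ratio of Slc40a1 to Tfrc reads, the exporter over the receptor, was 0.0331 ± 0.00128 in IR -SG, 0.0141 ± 0.00426 in -SG, 0.0110 ± 0.00224 in IR and 0.00396 ± 0.00013 in Ctr. Every IR -SG library was above, and every Ctr library below, all others. Ncoa4 over Fth1 averaged 0.0106 in IR -SG, 0.00788 in -SG, 0.0117 in IR and 0.00868 in Ctr, and the IR -SG range overlapped with those of IR and Ctr, as did the -SG range with that of Ctr. Ireb2 over Aco1 averaged 1.11, 1.25, 1.05 and 1.18 in the same order. In -SG it was 1.34 and 1.47 in replicates 4 and 5, above every library of the other groups (highest 1.22, Ctr replicate 2). In -SG replicate 6 it was 0.952, below every other library. The -SG mean log2 ratio of Ireb2 over Aco1 was 0.30, or 0.49 without replicate 6.

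**Figure D3:**
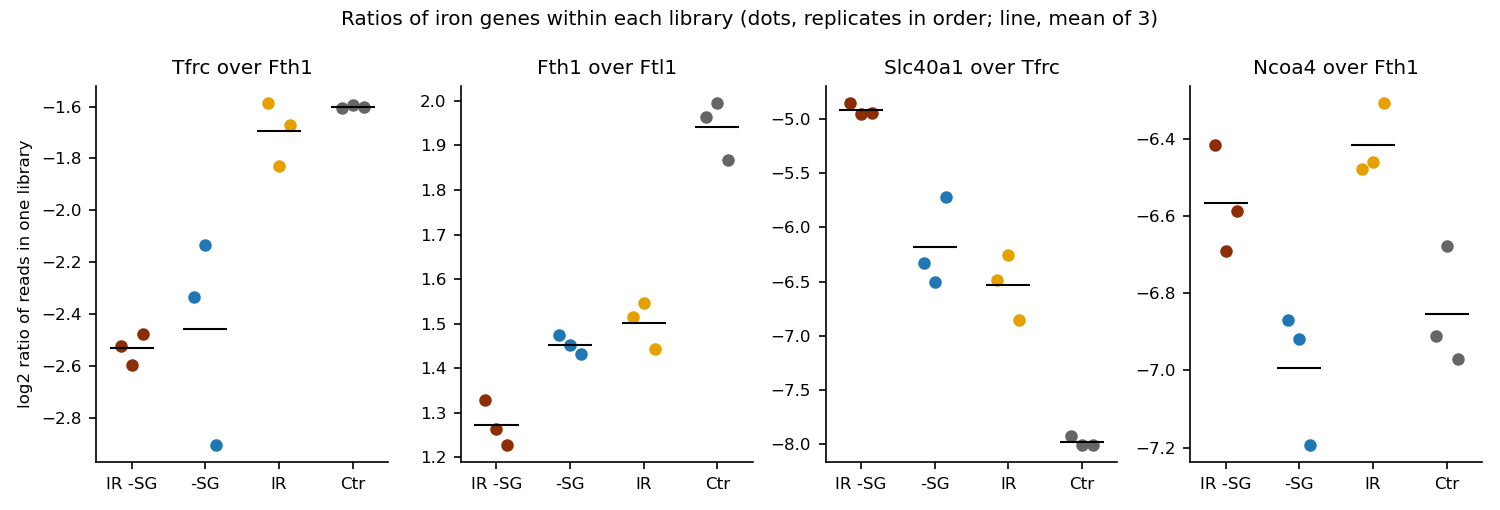
Log2 ratio of the reads of 2 genes in the same library (y axis; each panel has its own scale, not starting at 0) for IR -SG, -SG, IR and Ctr from left to right. Dots are replicates in order and lines are means of 3; the mean Tfrc over Fth1 ratio is -2.53 in IR -SG and -1.60 in Ctr, and -SG replicate 6 is the lowest dot of that panel.

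Per kilobase of the longest protein-coding transcript, mean levels in Ctr ran Fth1 (23196 normalized counts per kb), Ftl1 (9327), Tfrc (2337), Aco1 (461), Ireb2 (362), Slc11a2 (255), Ncoa4 (74.0), Slc40a1 (13.4) and Scara5 (4.80). In IR -SG, Scara5 reached 176 per kb, above Ncoa4 (85.5) and Slc40a1 (55.8) and just below Slc11a2 (208). The order in Ctr was the same with lengths taken over all exons, but the order of Fth1 and Ftl1 in IR -SG was not: 9463 and 10142 per kb over all exons, 21973 and 14039 per kb by transcript.

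Over the 12 libraries, the genes whose levels were most like those of Scara5 by Pearson's r of log2(normalized count + 1) were Adra1b (0.994), Afap1l2 (0.993), Ezr (0.993), Perp (0.992) and Ypel5 (0.992), among 11662 genes. Of the iron genes, Slc40a1 was closest (r = 0.922, rank 682), then Ftl1 (r = 0.897, rank 919), and Tfrc ran opposite (r = -0.863). Fth1 had an r of 0.206. For Tfrc the closest genes were Gja1 (0.991), Nus1 (0.988), Ccne2 (0.987), Gtpbp10 (0.986) and D16Ertd472e (0.984). Points share 4 group means, so many genes reach high values.

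The other genes of iron metabolism were taken from 10 lists with 107 genes, 94 of them in the table and 85 tested. In IR -SG against Ctr 27 rose and 32 fell, in -SG 25 rose and 27 fell, and in IR 25 rose and 21 fell. That is 69.4%, 61.2% and 54.1% of the 85, beside 69.7%, 58.6% and 53.7% of all tested genes, so the shares lay near the background. The counts of each list below are to be read against the shares of all tested genes that rose and fell, 37.2% and 32.5% in IR -SG, 30% and 28.6% in -SG, and 28.9% and 24.9% in IR. Their median log2 fold changes were -0.05, -0.02 and 0.01, near those of all tested genes. Without -SG replicate 6, a setting added after the data were seen, the numbers were 27 and 34, 25 and 30, and 26 and 24. Among the calls named below, those of Slc39a14, Mcoln1, Bach1, Abcb10 and Bola3 in IR and of Hmox2 and Nubp1 in -SG were lost in 1 to 7 of the other settings each.

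Among 10 tested genes of other uptake and release, 3 rose and 2 fell in IR -SG, 3 and 2 in -SG, and 6 and 1 in IR. Hfe, a partner of transferrin receptor 1, rose by 0.60, 0.52 and 0.50 on the log2 scale in IR -SG, -SG and IR. Under quantile normalization these were 0.34, 0.34 and 0.24, and the one in IR did not pass (limma adjusted p = 0.0814). Slc39a14, a transporter of iron that is not bound to transferrin, fell by 0.52 in IR -SG and by 0.50 in -SG. It rose by 0.12 in IR. Mcoln1, a lysosomal iron channel, rose by 0.43, 0.39 and 0.18 in IR -SG, -SG and IR. Lrp1, a receptor that takes up heme bound to hemopexin, rose by 0.66 in IR -SG and by 0.59 in IR. The heme transporter Slc48a1 rose by 0.36 in -SG and fell by 0.40 in IR. The endosomal iron reductase Steap3 passed in none of the 3, with means of 402 normalized counts in IR -SG, 368 in -SG, 406 in IR and 390 in Ctr. Lcn2, which binds iron-carrying siderophores, was low, at 13.1, 8.79, 26.8 and 11.1 normalized counts in the same order, and rose by 1.52 in IR, a call lost without Ctr replicate 2 (limma adjusted p = 0.0552) and under quantile normalization (0.80, adjusted p = 0.114). Trf, encoding transferrin, was below the filter, with at most 11.4 normalized counts in any library. Scara3, another scavenger receptor of the class of Scara5, rose by 0.38 in IR -SG and by 0.60 in IR and not in -SG (log2 fold change -0.13).

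Among 10 genes of storage, chaperones and export, 5 rose and 3 fell in IR -SG, 4 and 2 in -SG, and 4 and 3 in IR. Cp, encoding the ferroxidase ceruloplasmin that acts beside ferroportin, had means of 709 normalized counts in IR -SG, 452 in -SG, 998 in IR and 281 in Ctr. It rose by 1.33, 0.68 and 1.82 on the log2 scale in the 3 treatments, with an interaction of -1.17 (SE 0.12, limma adjusted p = 8.81e-06). Prnp, the prion protein, which can act as a ferrireductase, rose by 0.99 in IR -SG, 0.98 in -SG and 0.22 in IR. App, the amyloid precursor, which binds ferroportin, rose by 0.57, 0.25 and 0.46 in the same order. Abcg2, a porphyrin and heme exporter, fell by 0.76 in IR -SG and by 1.00 in -SG, and rose by 0.51 in IR. Pcbp1, a chaperone that carries iron to ferritin, fell in all 3 treatments, by 0.72 in IR -SG, 0.23 in -SG and 0.43 in IR. Pcbp2, its relative, rose by 0.12 in -SG and fell by 0.20 in IR.

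Among 8 tested genes that control iron genes, 4 rose and 2 fell in IR -SG, 3 and 2 in -SG, and 4 and 2 in IR. Bach1, a heme-regulated repressor, rose by 0.55 in IR -SG, 0.35 in -SG and 0.20 in IR. Nfe2l2, an activator of ferritin and heme oxygenase genes, rose by 0.31 in IR -SG and by 0.37 in -SG. Erfe, encoding erythroferrone, rose by 0.52 in IR -SG and by 0.76 in IR. Hif1a fell by 0.42, 0.28 and 0.26 in IR -SG, -SG and IR, and by 0.17 in -SG without -SG replicate 6. Fbxl5, the ubiquitin ligase subunit that targets iron regulatory protein 2 when iron is plentiful, fell by 0.27 in IR -SG and by 0.21 in -SG. Of 5 other tested mRNAs with a known IRE, Pfn2 rose by 0.29 in IR -SG, Cdc14a fell by 0.21 in -SG and Cdc42bpa fell by 0.16 in IR. The call for Cdc14a was lost in 16 of the other settings, among them 9 of 12 fits that left out a library. The call for Pfn2 was lost in 7 of the other settings and that for Cdc42bpa in 2. Pfn2 was at 0.09 under quantile normalization (limma adjusted p = 0.478), and Cdc14a at -0.12 without -SG replicate 6 (adjusted p = 0.22). The only other changes on that list were falls of Hao1, named after its values were seen, which had means of 16.2 normalized counts in IR -SG, 11.2 in -SG, 37.3 in IR and 31.3 in Ctr.

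Of 11 tested genes of mitochondrial iron import and transport, 1 rose and 9 fell in IR -SG, 1 rose and 7 fell in -SG, and 1 rose and 2 fell in IR, beside 32.5%, 28.6% and 24.9% of all tested genes that fell. The median log2 fold change was -0.28 in IR -SG, -0.18 in -SG and -0.01 in IR, against 0.03, 0.01 and 0.00 over all tested genes. The mitochondrial iron importer Slc25a37 (mitoferrin 1) fell by 0.28 in IR -SG and by 0.26 in -SG, and its relative Slc25a28 fell by 0.13 in IR -SG, a call lost in 7 of the other settings (limma adjusted p between 0.0619 and 0.172). Cisd1 and Cisd3, outer membrane and matrix proteins with iron-sulfur clusters, fell by 0.31 and 0.29 in IR -SG and by 0.32 and 0.56 in -SG. Mtx1 fell by 0.22 in IR -SG and by 0.25 in IR, and Abcb10 rose by 0.12 in IR. The gene that rose in the starved groups was Abcb6, a porphyrin transporter named after its values were seen, with 42.2 normalized counts in IR -SG, 43.9 in -SG, 22.6 in IR and 24.6 in Ctr.

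Of 10 tested heme synthesis genes, 5 rose and 3 fell in IR -SG, 4 and 3 in -SG, and 2 and 4 in IR. Alas1, whose enzyme joins glycine and succinyl-CoA in the first step, had means of 1100 normalized counts in IR -SG, 1233 in -SG, 579 in IR and 628 in Ctr. It rose by 0.81 on the log2 scale in IR -SG (limma adjusted p = 2.89e-10) and by 0.97 in -SG (adjusted p = 5.87e-11). It fell by 0.12 in IR (adjusted p = 0.0482), a call lost in 15 of the other settings. Alad, the next enzyme, fell by 0.83 in IR -SG, 0.56 in -SG and 0.47 in IR. Ppox rose by 0.48 in IR -SG and by 0.33 in -SG, and Uros rose by 0.46 in IR -SG and by 0.58 in IR. Under quantile normalization Uros was at 0.20 in IR -SG and did not pass (adjusted p = 0.138), and at 0.34 in IR. Fech, which inserts iron into the porphyrin, rose by 0.16 in IR -SG, a call lost in 4 of the other settings, among them without IR -SG replicate 6 (0.09, adjusted p = 0.145) and without Ctr replicate 1 (adjusted p = 0.065).

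Of 4 heme breakdown genes, Hmox1, the inducible heme oxygenase that frees iron from heme, had means of 1091 normalized counts in IR -SG, 1168 in -SG, 982 in IR and 701 in Ctr. It rose by 0.64, 0.73 and 0.48 on the log2 scale in the 3 treatments, with an interaction of -0.58 (SE 0.08, limma adjusted p = 0.000127). Blvrb rose by 1.05 in IR -SG and by 0.92 in -SG, and Hmox2 fell by 0.28 and 0.19 in these groups.

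Mitochondrial iron-sulfur cluster genes numbered 16 tested: 1 rose and 7 fell in IR -SG, 4 and 5 in -SG, and 2 and 5 in IR. Fdxr, which passes electrons to ferredoxin, fell by 0.70 in IR -SG, 0.56 in -SG and 0.34 in IR. Bola3 fell by 0.42, 0.49 and 0.33 in the same order, Bola1 fell by 0.54 in IR -SG, and Isca2 fell by 0.42 in IR. Isca2 also rose by 0.17 in -SG (limma adjusted p = 0.0408), a call lost in 9 of the other settings. Of 11 cytosolic iron-sulfur genes, 4 rose and 5 fell in IR -SG, 4 and 4 in -SG, and 4 and 3 in IR. Nubp1, a scaffold subunit, fell by 0.52 in IR -SG, 0.18 in -SG and 0.45 in IR, while its partner Nubp2 rose by 0.31, 0.17 and 0.33. The call for Nubp2 in -SG was lost without -SG replicate 6 (0.10, limma adjusted p = 0.0733) and without Ctr replicate 2 (adjusted p = 0.0625). Ciao1 rose by 0.40, 0.32 and 0.21 in the same order, Bola2 fell by 0.52 in IR -SG and by 0.31 in -SG, Ciao2a fell by 0.23 and 0.27 in these groups and rose by 0.15 in IR (adjusted p = 0.0302, lost in 4 of the other settings), and Ciao2b fell by 0.25 in IR.

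**Figure D4:**
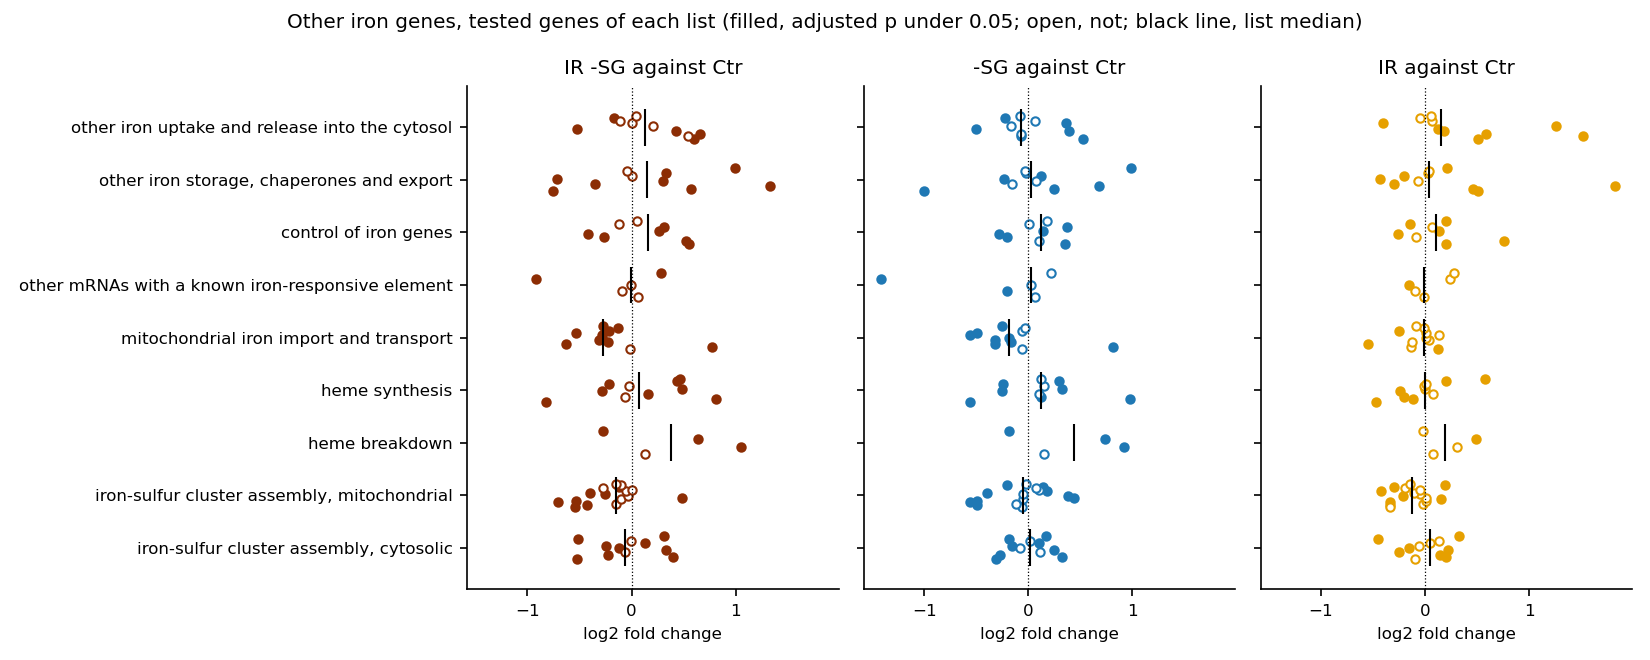
Log2 fold change against Ctr (x axis) of the tested genes in 9 lists of other iron genes, in IR -SG, -SG and IR from left to right. Each dot is a gene, filled where its adjusted p was under 0.05, and the black line is the list's median; for mitochondrial iron import and transport it is at -0.28, -0.18 and -0.01.

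Promoters (250 bases before to 50 after the start, RefSeq, GRCm38.p6) were found for Fth1, Ftl1, Tfrc, Aco1, Ireb2 and Ncoa4. The antioxidant response element, searched as TGACNNNGC on both strands, is in 12.39% of 32851 promoters and was in 1 of 3 Ncoa4 promoters and in none of the other 5 genes. The amino acid response element, searched as TGATGNAA, is in 3.97% of promoters and was in none of them. A match or its absence in this window is a description only.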

How the data were processed

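RNA-Seq was deposited for 12 libraries of 4T1 cells, 3 per group. The authors checked reads with FastQC, aligned them to GRCm38 with HISAT2 and TopHat, counted them per gene with featureCounts and scaled them with DESeq2 in R 3.3.1. For the strand setting and the other tools' versions: not given in the sources used here. What the authors deposited is a signal in normalized counts: each library's counts over its size factor. Whole reads were recovered for 100% of values (tolerance 0.001), summing to 12540160 to 20066659 per library, and served for alternative count tests. Gene positions came from GENCODE M21.

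For the tests, 1 was added to each normalized count before taking log2. One limma fit (3.58.1, under R 4.3.3, moderated with an intensity trend) covered the 4 groups and the 11663 protein-coding genes that reached 10 normalized counts in 3 or more libraries. P-values were adjusted over all of them (Benjamini-Hochberg) in each of 7 contrasts, with a threshold of 0.05. Alternatives were other pseudocounts, filters, scalings and fits, edgeR 4.0.16 and DESeq2 1.42.0 on recovered reads, and leaving out each library. From each list the text names up to 3 genes of largest change against Ctr in each comparison, restricted to genes that passed and averaged 100 normalized counts or more in the higher group, together with genes listed for their role. Log2 fold changes against Ctr are given for these genes where they passed. Some genes that this rule names are not reported here. The 9 genes, the lists and the ratios were chosen with earlier results of these data known.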

Additional observations from a re-analysis of the deposited data

Results flagged for a closer look

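The radiation effect differed between the media by the test of the interaction for 7 of the named genes. The interaction was IR -SG less -SG, minus IR less Ctr, on the log2 scale (limma with Benjamini-Hochberg adjustment). Many of the other iron genes were named for large changes against Ctr. Those changes share libraries with the interaction, so the 7 and their signs are not free of that choice. Fth1 had an interaction of -0.29 (SE 0.07, adjusted p = 0.0116) and Ftl1 of -0.55 (SE 0.08, adjusted p = 0.000458). Among the other iron genes, Cp had -1.17 (SE 0.12, adjusted p = 8.81e-06), Hmox1 -0.58 (SE 0.08, adjusted p = 0.000127), Erfe -0.35 (SE 0.07, adjusted p = 0.00463), Prnp -0.21 (SE 0.05, adjusted p = 0.0145) and App -0.14 (SE 0.04, adjusted p = 0.0356). Of the 85 tested genes on the other iron lists, 6 passed (7.1%, beside 11.4% of all tested genes), none with a positive value. The sixth was Hspa9, named after its values were seen, at -0.20 (SE 0.04, adjusted p = 0.00648). Without -SG replicate 6, a setting added after the data were seen, 5 of the 85 had a positive and 7 a negative interaction past the threshold. The call for App was lost in 10 of 12 fits that left out a library. Of all tested genes, 836 had a negative and 490 a positive interaction past the threshold.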

How the results depend on the processing

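Of 1416 values of the 8 tested iron genes under other settings, 1352 kept their direction and side of the threshold. Filters, and leaving out a library outside the comparison, leave a log2 fold change as it was, so many of these values could not change direction. The other named genes were scored only in comparisons where they passed in the main fit, so no call could be gained. Of 2855 values of these genes, 105 lost the threshold and none changed direction. Leaving out 1 library in turn gave 6127 to 7207 genes and 6 to 7 iron genes past the threshold in -SG against Ctr. In IR against Ctr it gave 5515 to 7153 and 3 to 6, in IR -SG against Ctr 7599 to 8666 and 5 to 8, and in IR -SG against -SG 4135 to 5482 and 3 to 6. The remaining ranges were 5951 to 7390 and 5 (IR -SG against IR), 6166 to 7224 and 5 to 6 (-SG against IR), and 947 to 2054 and 2 to 3 (interaction). The 2054 and the 6 in IR came without -SG replicate 6, and the 3 in IR -SG against -SG without IR -SG replicate 4. Requiring a 2-fold change left 720, 734, 1164, 241, 513, 768 and 161 genes, in the order of the ranges just given, and 1, 1, 2, 0, 0, 0 and 0 of the 8. With only the groups compared in the fit, 6 of the 8 passed in IR against Ctr. Without an intensity trend 1 passed the interaction. Fitting only the groups compared, or leaving out -SG replicate 6, left the log2 fold changes of Fth1, Tfrc and Ireb2 in IR unchanged. Only the estimate of the spread they were tested against differed. The cause of the other shifts, and why -SG replicate 6 stood apart, was not tested. Under quantile normalization the log2 fold change of Fth1 over Ctr turned to 0.013 in IR and to 0.083 in IR -SG, and that of Slc40a1 in -SG against IR to 0.046. Fth1 in IR -SG against IR was -0.0064 by TMM, -0.007 by edgeR and -0.012 by DESeq2. Leaving out 1 library, values near 0 changed sign: Fth1 in IR -SG against IR ranged from -0.0169 to 0.0279, Slc40a1 in -SG against IR from -0.198 to 0.0573, Ireb2 in IR -SG against -SG from -0.197 to 0.0835, in -SG against IR from -0.163 to 0.117 and for the interaction from -0.061 to 0.219, and Ncoa4 in IR -SG against -SG from -0.0179 to 0.119. By Spearman's rho in place of r, Fth1 had -0.147 with Scara5 and 0.084 with Tfrc. The replicate block gave 6026 genes and 3 of the 8 in IR against Ctr, 4637 and 5 in IR -SG against -SG and 985 and 2 for the interaction, and under it the interactions of App (adjusted p = 0.0795) and Prnp (0.0545) did not pass; the other contrasts share no numbers. Same-numbered libraries did not deviate together (correlations 0.068, 0.025 and 0.042 for IR and Ctr, 0, -0.081 and -0.094 for IR -SG and -SG), so the numbers were not used as pairs; each library correlated best with its own number in IR and Ctr but not in IR -SG and -SG. Depth limits Scara5 most, with 14 to 26 reads per Ctr library.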
